A study of Mus musculus with 12 samples.

Results

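Cultures of DC2.4, a dendritic cell line of mouse origin, were exposed to extracellular vesicles shed by activated T cells (ATEV), either intact or after pretreatment with Baseline-ZERO DNase, an enzyme that degrades DNA. The results below describe the contrast between these groups, which takes 6 of the 12 libraries of the series, chosen by their treatment labels, across all genes with enough counts (13261 of 42687 listed). Intact ATEV and DNase-treated ATEV were each given at 15 µg/mL, and each has 3 libraries. The remaining groups, also of 3 libraries, received phosphate-buffered saline (PBS) or the vesicles of non-activated T cells (NTEV, 30 µg/mL), and they serve here as reference levels. All cells were the same wild-type line. Per the labels, cells were replated a day after treatment and the procedure was done 3 times, which may mean rounds on the same cells or separate experiments. Nothing in the labels places the libraries of a group in separate cultures, so the p-values measure the spread between these libraries, which may be technical. None of the 12 libraries came from cells given DNase without vesicles. How the T cells were activated, and whether the enzyme was removed before the cells were treated, are not given in the labels.

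Vesicles released by cells carry proteins, RNA and DNA. DNA that reaches the cytosol of a dendritic cell can be read by the sensor cGAS, which acts through the adaptor STING, the kinase TBK1 and the factor IRF3 to switch on interferon genes. Interferons signal through JAK kinases to STAT transcription factors, which raise antiviral effectors, GTPases that attack the membranes around microbes, and the machinery that cuts peptides and loads them on MHC class I for CD8+ T cells. These are general facts about the pathway and not results of these data.

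The 6 libraries held 19.4 to 22.9 M counts (1 M = 1e6). In a principal component analysis of these 6 libraries, the first component carried 40.7% of the variance and placed the 3 ATEV libraries at -0.81, -29.1 and -38.6 and the 3 DNase-treated ATEV libraries at 18.3, 23.8 and 26.5. Over all 12 libraries, DNase-treated ATEV replicate 1 stood apart from the other DNase-treated libraries on the first component, at -30.4 against 4.41 and 9.81, and lay among the PBS libraries (-41.8 to -14.6). Replicate 1 was also the lowest NTEV library, at -21.5 against 41.7 and 15.0, and the lowest PBS library. Among the ATEV libraries it was the highest, at 31.1 against 25.3 and 9.33. Of 23 dendritic cell markers 14 had enough counts to test. Their log2 differences between ATEV and DNase-treated ATEV ran from -1.05 to 0.82 with a median of 0.14, and 1, Irf8, passed the test described below. Sirpa, an inhibitory receptor of myeloid cells, averaged 613 CPM in ATEV and 578 CPM in DNase-treated ATEV (CPM is counts per 1e6 counts, with library sizes scaled by TMM), and Itgax, which encodes CD11c, averaged 39.4 and 34.5 CPM. Clec9a had 0 counts in all 12 libraries, which allows up to 3 counts a library, and Flt3, with 6 counts in all, was not tested.

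DNase treatment of the vesicles was accompanied by lower levels of interferon-inducible genes, class I presentation genes and genes outside those lists, such as Acod1, Fas and Lyz2. Of 13261 genes tested, 194 (1.46%) passed an adjusted p of 0.05 in edgeR's quasi-likelihood test with Benjamini-Hochberg adjustment, and a gene that did so is said below to be called. 175 of them (1.32% of genes tested) were higher with intact ATEV and 19 (0.143%) were lower. The called higher genes had a median log2 difference of 1.49 and the called lower genes one of -0.96, and 123 and 9 of them differed by at least 2-fold. In each of the 194 the 3 ATEV libraries lay wholly above or wholly below the 3 DNase-treated libraries. That separation alone is common: 10.1% of all genes tested lay wholly above and 10% wholly below. Without adjustment, 2012 genes (15.2%) had a p under 0.05. 58 of the 175 higher genes belong to lists of interferon-inducible or class I genes that hold 130 tested genes in all, and 84 belong to no list used here. Every log2 difference below is intact ATEV minus DNase-treated ATEV, with its standard error, and every p is adjusted over all genes tested.

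**Figure D1:**
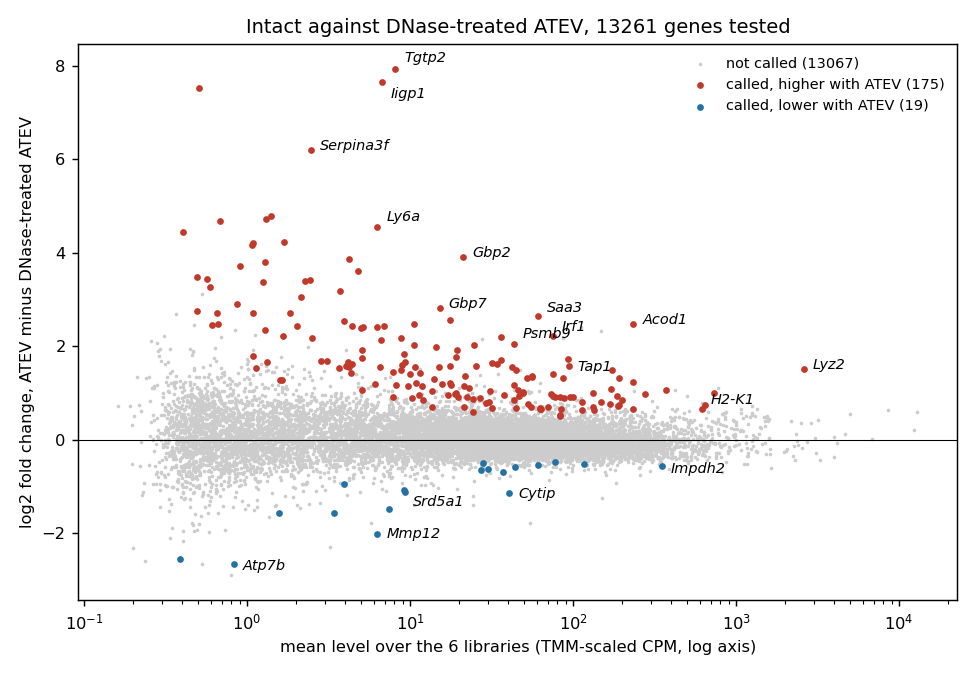
Log2 fold change of intact ATEV over DNase-treated ATEV (vertical axis) against mean level over the 6 libraries (horizontal log axis, TMM-scaled CPM) for 13261 genes. The 175 called higher genes (red) reach larger changes than the 19 called lower genes (blue), and Tgtp2, Iigp1 and Serpina3f lie at the top.

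The interferon-gamma-inducible GTPases had the largest median difference of the lists, and the 16 of 22 listed members with enough counts to test were called higher (against 1.32% of all genes called higher). Of these 16, Iigp1, Tgtp2, Gbp5, Gbp6, Gbp9, Gm12250 and Gm4951 had enough counts only through the ATEV libraries, where they were high, so that their calls are partly fixed by the filter. The 9 that pass the filter over the other libraries alone were also called higher, with a median log2 difference of 2.4. They comprise guanylate-binding proteins (Gbp), which coat and break pathogen vacuoles, and immunity-related GTPases, which act on the same membranes. The median over the 16 was 3.37, also with Gm4951 at its lower bound, against 0.00 over all genes tested, and 14 of the 16 stayed called whichever of the 6 libraries was left out. Summed over the list, the 3 ATEV libraries held 230 to 285 CPM, the DNase-treated libraries 43.5 to 50.4, PBS 30.3 to 31.8 and NTEV 30.2 to 31.5. Several of these genes are near-identical copies lying side by side, so reads may be split between Iigp1, Tgtp2, the Gbp genes and their neighbours in ways the counting does not record.

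Gbp2 was measured at 38.5, 32.1 and 48.1 CPM in the ATEV libraries and at 4.04, 1.47 and 2.34 CPM in the DNase-treated libraries. The groups were far from overlapping, and the difference was 3.92 ± 0.34 (adjusted p = 6.16e-05). PBS cells averaged 0.805 ± 0.307 CPM (SD, n = 3) and NTEV cells 0.962 ± 0.321 CPM, so the DNase-treated libraries lay between PBS and intact ATEV. From the same fit, which shares libraries between contrasts, Gbp2 differed from PBS by 5.59 ± 0.39 with ATEV (adjusted p = 3.82e-06) and by 1.68 ± 0.39 with DNase-treated ATEV (adjusted p = 0.400). Gbp7 stood at 33.7, 22.2 and 24.2 CPM with ATEV and at 4.19, 3.55 and 3.55 CPM after DNase, a difference of 2.83 ± 0.24 (adjusted p = 4.14e-05). Gbp3 averaged 39.8 ± 4.80 CPM with ATEV and 9.81 ± 1.57 CPM after DNase, and PBS cells held 3.35 ± 0.972 CPM. Its difference was 2.02 ± 0.21 (adjusted p = 0.000291), and its DNase-treated level lay 1.54 ± 0.22 above PBS, short of the threshold (adjusted p = 0.0612).

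Among the immunity-related GTPases, Irgm2 stood at 35.2, 25.5 and 29.8 CPM with ATEV and at 4.62, 5.97 and 4.72 CPM after DNase. Its lowest ATEV library was above its highest DNase-treated library by a wide margin, and the difference was 2.56 ± 0.21 (adjusted p = 4.14e-05). Irgm1, a regulator of the effector GTPases, averaged 55.1 ± 3.50 CPM against 17 ± 1.45 CPM, a difference of 1.70 ± 0.14 (adjusted p = 4.14e-05). Igtp, a further regulator of this family, averaged 17 ± 1.53 against 4.17 ± 0.559 CPM, and PBS cells held 3.92 ± 0.308 CPM. Its difference was 2.03 ± 0.18 (adjusted p = 6.54e-05).

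The effector GTPases Iigp1 and Tgtp2 were almost confined to intact ATEV among these 12 libraries. Iigp1 was at 11, 12.4 and 16.6 CPM with ATEV and at 0, 0.0947 and 0.0835 CPM after DNase, and it had 0 counts in all PBS and NTEV libraries. With 827 counts in the ATEV group and 4 in the DNase-treated group, the ratio was 216 (95% exact counting interval 84.1 to 795, which covers counting error only). Tgtp2 had 997 counts against 4, a ratio of 260 (101 to 958). Gbp6 had 82 against 3 counts, a ratio of 28.6 (9.44 to 141), and Gbp5 had 126 against 7, a ratio of 18.8 (8.86 to 47.7). Gbp9, with 49 against 2 counts, had a ratio of 25.6 (6.72 to 217). Gm4951 had 62 counts with ATEV and 0 after DNase, so it was at least 21.6-fold higher when the DNase-treated group is set at 3 counts over its libraries. The calls of Gbp9 and Gm4951 rested on single libraries: without ATEV replicate 3 or any 1 DNase-treated library the adjusted p of Gbp9 rose to as much as 0.0918, and without any library but ATEV replicate 1 that of Gm4951 rose to as much as 0.0757.

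Promoters of the GTPases are shown because these genes moved together. Interferon-responsive genes often carry the core of the interferon-stimulated response element (ISRE: GAAA, any 2 bases, then GAAA), bound by interferon regulatory factors, or the word TTCNNNGAA, bound by STAT factors. Both strands were searched over the 250 bases before each annotated start in RefSeq (mouse build GRCm38.p6); the second word is its own reverse complement. The 120 bases next to the start are printed 5′ to 3′ on the strand of the gene, with matches in capitals.
Gbp2, chr3:142620543-142620662, + strand: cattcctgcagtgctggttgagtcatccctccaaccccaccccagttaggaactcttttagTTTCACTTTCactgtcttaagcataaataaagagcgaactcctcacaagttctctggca
Gbp7, chr3:142530216-142530335, + strand: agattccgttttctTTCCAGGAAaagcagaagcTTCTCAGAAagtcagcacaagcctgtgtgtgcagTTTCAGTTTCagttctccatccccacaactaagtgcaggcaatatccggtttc
Irgm1, chr11:48871421-48871540, - strand: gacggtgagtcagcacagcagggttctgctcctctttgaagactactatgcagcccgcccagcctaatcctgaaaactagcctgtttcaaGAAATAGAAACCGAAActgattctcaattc
Irgm2, chr11:58214857-58214976, + strand: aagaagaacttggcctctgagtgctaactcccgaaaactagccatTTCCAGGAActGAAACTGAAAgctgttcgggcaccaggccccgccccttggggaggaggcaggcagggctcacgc
Igtp, chr11:58199436-58199555, + strand: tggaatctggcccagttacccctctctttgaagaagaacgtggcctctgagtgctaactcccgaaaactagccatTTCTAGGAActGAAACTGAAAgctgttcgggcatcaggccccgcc
Irf1, chr11:53769894-53770013, + strand: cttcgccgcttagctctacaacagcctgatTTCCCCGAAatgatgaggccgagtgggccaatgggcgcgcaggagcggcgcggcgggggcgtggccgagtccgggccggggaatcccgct
Psmb9, chr17:34187331-34187450, - strand: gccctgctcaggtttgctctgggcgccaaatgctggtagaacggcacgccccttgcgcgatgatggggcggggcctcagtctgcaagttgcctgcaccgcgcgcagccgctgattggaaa

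In Gbp2 the ISRE core lay on the opposite strand, 59 to 50 bases before the start. In Gbp7 it lay 53 to 44 bases before the start, also on the opposite strand, with 2 matches to TTCNNNGAA upstream of it. Irgm1 held 2 overlapping matches to the ISRE core between 30 and 15 bases before the start. In Irgm2 and Igtp TTCNNNGAA lay just before the ISRE core. These 2 promoters also share an identical run of 55 bases that begins 215 and 181 bases before their starts, upstream of the bases printed here and of both motifs. The printed bases around both motifs are nearly identical as well. The matches in these 2 genes are therefore not independent, although each gene is counted in the shares below. Irf1 had 1 match to TTCNNNGAA in this window, and Psmb9 had no match to either. Of the 16 GTPase genes, 10 had a RefSeq window, and 9 of those held the ISRE core and 6 held TTCNNNGAA. Among all 9358 tested genes with a window, 3.26% held the ISRE core and 7.04% held TTCNNNGAA. Among the 126 called higher genes with a window, 27.8% and 15.1% did, and of 15 called lower genes with a window 1 held the ISRE core and none held TTCNNNGAA. Of the 12 peptide loading genes with a window, 1 held the ISRE core and 1 held TTCNNNGAA. A match is a description of the letters and not a binding site, and a missing match says only that the letters are not in this window.

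Of the interferon-stimulated antiviral effectors, proteins that block viral entry, translation or replication, 19 of 53 tested were called higher and none lower. Over the 48 that have enough counts in the other libraries alone, 16 were called higher, with a median of 0.75. The median log2 difference over the 53 was 0.82, and 8 of the 19 stayed called whichever library was left out. Lgals3bp, a secreted galectin-binding glycoprotein, was at 81.9, 85.1 and 74.0 CPM with ATEV and at 31.2, 33.1 and 29.9 CPM after DNase. The spread within each group was small, and the difference was 1.35 ± 0.11 (adjusted p = 4.14e-05). PBS cells held 17.7 ± 0.731 CPM of Lgals3bp, so its DNase-treated level was above PBS, by 0.83 ± 0.11, without passing the threshold (adjusted p = 0.0612). Zbp1, which senses nucleic acids in the Z form, was at 7.36, 7.55 and 11.6 CPM with ATEV and at 1.01, 0.568 and 0.584 CPM after DNase, a difference of 3.61 ± 0.33 (adjusted p = 6.54e-05). Slfn2, a Schlafen protein, averaged 51.7 ± 11 against 16.9 ± 4.12 CPM (1.62 ± 0.20, adjusted p = 0.00108). Trim30d had 65 against 6 counts, a ratio of 11.3 (4.93 to 32.0). Trim30d had enough counts only through the ATEV libraries, so that its call is partly fixed by the filter.

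The same list held members with smaller differences or no call. Isg15, a ubiquitin-like modifier that is a classical interferon target, stood at 4.30, 4.35 and 5.51 CPM with ATEV and at 1.88, 1.18 and 1.34 CPM after DNase. Its groups did not overlap and the difference was 1.68 ± 0.30 (adjusted p = 0.00996), but without ATEV replicate 3, DNase-treated ATEV replicate 2 or replicate 3 the adjusted p rose to as much as 0.0810. Ifit2, also a classical interferon target, averaged 10.6 ± 0.782 CPM with ATEV and 10.4 ± 2.38 CPM after DNase, a difference of 0.03 ± 0.18 (adjusted p = 0.962). Usp18, which removes Isg15 from proteins, averaged 1.82 ± 1.23 against 1.41 ± 0.694 CPM (0.39 ± 0.49, adjusted p = 0.739). Ifit2 and Usp18 were named after their values were seen. Of the 7 interferon-linked PARP enzymes, which add ADP-ribose to proteins, Parp14 was called: it averaged 38.2 ± 6.47 against 12.7 ± 1.27 CPM (1.58 ± 0.18, adjusted p = 0.000525). All 7 had a positive difference, with a median of 0.46.

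The transcription factors that carry interferon signals were called for 4 of 13 tested members, and the receptors, kinases and inhibitors upstream of them for 0 of 16. Irf1, an early interferon-gamma-responsive factor, was at 120, 127 and 122 CPM with ATEV and at 20.5, 29.0 and 30.2 CPM after DNase. The ATEV libraries lay close together, and the difference was 2.21 ± 0.36 (adjusted p = 0.00565). Irf7, which amplifies type I interferon, averaged 14.2 ± 4.32 against 4.47 ± 0.564 CPM (1.67 ± 0.25, adjusted p = 0.00416).

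Irf8, a factor of dendritic cell development, rose less, from 101 ± 11.2 CPM after DNase to 164 ± 19 CPM with ATEV (0.70 ± 0.13, adjusted p = 0.0136). Its adjusted p rose to as much as 0.105 without ATEV replicate 3, DNase-treated ATEV replicate 1 or replicate 2. Stat2 and Irf9, factors of type I interferon signalling, had differences of 1.05 ± 0.29 (adjusted p = 0.109) and 0.89 ± 0.22 (adjusted p = 0.0772). Ifnar1 and Ifngr2, receptor chains for type I and type II interferon, averaged 81.7 ± 6.76 and 70.8 ± 7.93 CPM with ATEV against 75.8 ± 10.5 and 65.1 ± 6.82 CPM after DNase. Their differences were 0.11 ± 0.14 (adjusted p = 0.746) and 0.12 ± 0.12 (adjusted p = 0.666), within the spread of the libraries. Stat2, Irf9, Ifnar1 and Ifngr2 were named after their values were seen. None of 11 interferon ligand genes had enough counts to test, and Ifnb1 and Ifng had 0 counts in all 12 libraries, which allows up to 3 counts in each.

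**Figure D2:**
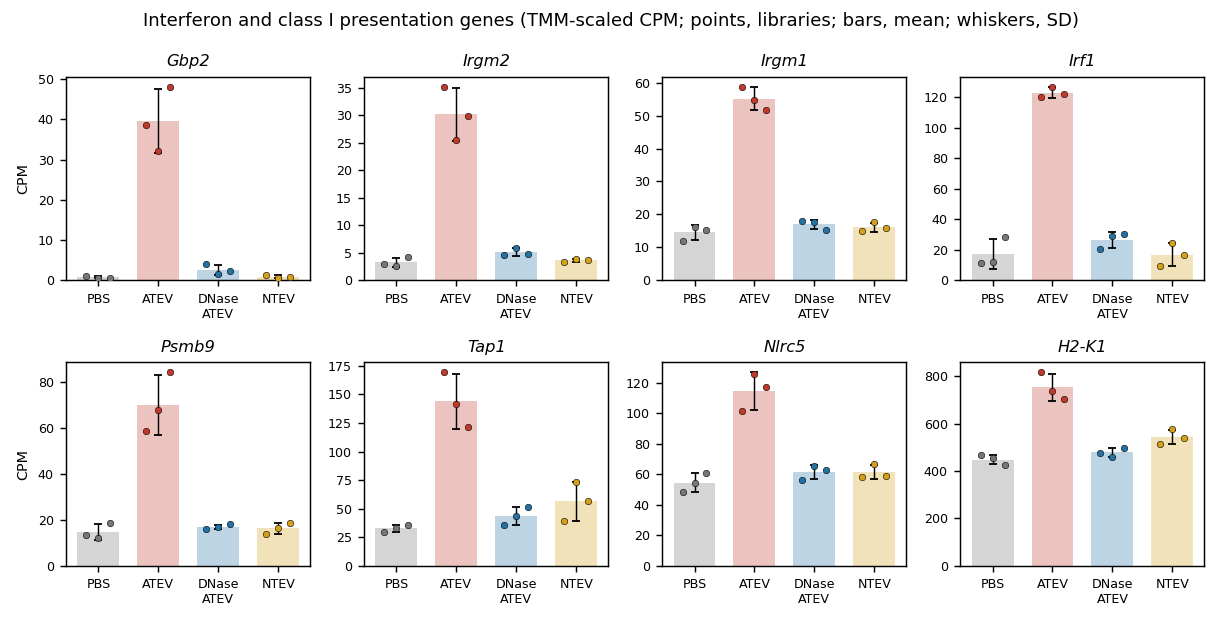
Levels (TMM-scaled CPM, linear axes from 0) of 8 interferon and class I presentation genes in the 4 groups; points are libraries, bars means and whiskers SD of 3 libraries. In each panel the 3 ATEV libraries lie above the 3 DNase-treated ATEV libraries, as for Gbp2 (39.6 against 2.62 CPM), while H2-K1 differs least (752 against 478 CPM).

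Genes that prepare peptides for MHC class I were higher with intact vesicles. Of 15 immunoproteasome and peptide loading genes, 10 were called higher and none lower, with a median log2 difference of 0.90, and 5 stayed called whichever library was left out. Psmb9, a catalytic subunit that replaces its constitutive counterpart in the immunoproteasome, was at 58.4, 67.5 and 84.1 CPM with ATEV and at 15.9, 16.6 and 17.9 CPM after DNase. The groups were well separated, at 2.05 ± 0.19 (adjusted p = 6.54e-05). Tap1, a subunit of the transporter that carries peptides into the endoplasmic reticulum, was at 170, 141 and 121 CPM with ATEV and at 35.4, 43.6 and 51.1 CPM after DNase, a difference of 1.73 ± 0.21 (adjusted p = 0.00101). Its partner Tap2 averaged 60.8 ± 6.86 against 31.9 ± 1.19 CPM (0.93 ± 0.14, adjusted p = 0.0036). Nlrc5, the transactivator of class I genes, was at 101, 125 and 117 CPM against 56.4, 65.4 and 62.4 CPM (0.90 ± 0.13, adjusted p = 0.00245).

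Psmb8, a further immunoproteasome subunit, was at 140, 171 and 220 CPM with ATEV and at 109, 80.1 and 76.7 CPM after DNase, so that ATEV replicate 1 and DNase-treated ATEV replicate 1 were the closest pair. Its difference of 1.00 ± 0.18 (adjusted p = 0.0125) was lost without ATEV replicate 3, DNase-treated ATEV replicate 2 or replicate 3, with an adjusted p of up to 0.0965. The members not called were B2m, the invariant light chain (0.58 ± 0.15, adjusted p = 0.0802), Erap1, a peptide-trimming protease (0.40 ± 0.16, adjusted p = 0.263), and the general chaperones Canx, Pdia3 and Calr. Canx differed by -0.40 ± 0.18 (adjusted p = 0.327), Pdia3 by -0.14 ± 0.33 (adjusted p = 0.868) and Calr by -0.17 ± 0.42 (adjusted p = 0.880).

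Of the class I heavy chains 8 of 11 tested were called higher and none lower, with a median log2 difference of 0.98. Near-identical sequence among these chains leaves the share of reads of each uncertain. The classical chain H2-K1 was at 817, 738 and 703 CPM with ATEV and at 477, 461 and 497 CPM after DNase (0.65 ± 0.11, adjusted p = 0.00952). H2-D1 was at 844, 825 and 766 CPM against 501, 452 and 505 CPM (0.74 ± 0.13, adjusted p = 0.00962). These were abundant genes with small, non-overlapping differences, and both lost their call without DNase-treated ATEV replicate 2 and H2-D1 also without ATEV replicate 2, with adjusted p up to 0.0838 for H2-K1 and 0.0863 for H2-D1. Larger relative differences were found for less abundant non-classical chains. H2-Q7 averaged 4.15 ± 0.291 against 0.382 ± 0.248 CPM (3.39 ± 0.43, adjusted p = 0.00118), and H2-Q4 62.6 ± 8.76 against 21.4 ± 5.62 CPM (1.54 ± 0.24, adjusted p = 0.0049). H2-M3, which presents formylated peptides, averaged 24.9 ± 2.56 against 12.6 ± 0.341 CPM (0.98 ± 0.14, adjusted p = 0.0036), and H2-T22 62.3 ± 5.17 against 29.9 ± 1.49 CPM (1.06 ± 0.15, adjusted p = 0.0033).

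Class II presentation genes, which serve CD4+ T cells, had no call among 10 tested members, against 1.46% of all genes called. Their median log2 difference was -0.02. Cd74, the invariant chain that escorts class II molecules, was at 178, 110 and 108 CPM with ATEV and at 119, 162 and 188 CPM after DNase. The groups overlapped, with a difference of -0.24 ± 0.22 (adjusted p = 0.626). The transactivator Ciita had 6, 5 and 11 counts in the ATEV libraries, 0, 1 and 1 after DNase and 0 in all PBS and NTEV libraries. The class II chain H2-Aa had 2, 6 and 9 counts with ATEV and 2, 0 and 0 after DNase. The class II chains H2-Ab1 and H2-Eb1 had 28 against 3 and 19 against 2 counts in all, whereas H2-DMb2, also of this list, had 19 against 30. These counts were too few for the test, so the result for the 10 tested members does not cover these genes.

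Of 17 dendritic cell maturation and costimulation genes 4 were called higher and none lower, with a median of 0.46. Il27 and Tnfsf18 had enough counts only through the ATEV libraries, so that the Il27 call is partly fixed by the filter. Of the 15 that pass the filter over the other libraries alone, 3 were called higher, with a median of 0.46. Cd40, the receptor through which helper T cells license dendritic cells, was at 20.1, 28.8 and 29.8 CPM with ATEV and at 7.80, 7.81 and 10.8 CPM after DNase. The difference was 1.57 ± 0.26 (adjusted p = 0.00748), and its adjusted p was 0.0582 without DNase-treated ATEV replicate 2. Il27, a subunit of the cytokine IL-27, had 96 against 13 counts, a ratio of 7.72 (4.30 to 15.0; adjusted p = 0.00118). Il15ra, which presents IL-15 to T and NK cells, averaged 22.6 ± 4.60 against 11.6 ± 0.893 CPM (0.96 ± 0.18, adjusted p = 0.0130), with an adjusted p of up to 0.0654 without ATEV replicate 3, DNase-treated ATEV replicate 1 or replicate 2. Icam1, an adhesion molecule, averaged 97.2 ± 4.31 against 68.7 ± 2.91 CPM (0.50 ± 0.10, adjusted p = 0.0282), and its call was lost, with an adjusted p of up to 0.176, without any library but ATEV replicate 1.

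Other costimulatory and checkpoint genes did not pass. Cd80, a ligand of CD28, was at 18.2, 16.1 and 14.4 CPM with ATEV and at 8.81, 10.2 and 9.06 CPM after DNase. These groups did not overlap, and the difference was 0.79 ± 0.22 (adjusted p = 0.109). Cd86, the other ligand of CD28, was at 56.9, 52.5 and 79.5 CPM against 56.4, 56.2 and 58.6 CPM, overlapping values with a difference of 0.14 ± 0.17 (adjusted p = 0.732). Cd274, which encodes PD-L1, averaged 54.9 ± 10.4 against 29.6 ± 0.501 CPM (0.89 ± 0.31, adjusted p = 0.205). Il12b, the shared subunit of IL-12 and IL-23, had 0 counts in all 12 libraries.

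Of 34 tested genes of DNA sensing and DNA degradation 6 were called higher and none lower, and the median log2 difference of the list was -0.01. Ifi211 had enough counts only through the ATEV libraries, so that its call is partly fixed by the filter. Of the 33 that pass the filter over the other libraries alone, 5 were called higher, with a median of -0.03. The sensor Cgas was at 31.5, 36.0 and 42.3 CPM with ATEV and at 44.5, 34.8 and 28.7 CPM after DNase, overlapping values with a difference of 0.02 ± 0.16 (adjusted p = 0.964). Tmem173, which encodes STING, averaged 67.3 ± 9.41 against 74.1 ± 2.58 CPM (-0.14 ± 0.13, adjusted p = 0.642). The called members were Zbp1, given above, Ikbke, and genes of the p200 family and the inflammasome. Ifi211, a p200 DNA-binding protein, had 148 against 11 counts, a ratio of 14.1 (7.63 to 28.8), and its adjusted p of 0.00525 was 0.0527 without DNase-treated ATEV replicate 2. Ifi203, of the same family, averaged 20.0 ± 2.27 against 8.11 ± 2.72 CPM (1.30 ± 0.23, adjusted p = 0.00962), with an adjusted p of up to 0.0760 without ATEV replicate 3, DNase-treated ATEV replicate 2 or replicate 3. Ikbke, a kinase related to TBK1, was at 58.4, 72.3 and 67.4 CPM against 28.2, 33.8 and 36.8 CPM (1.00 ± 0.17, adjusted p = 0.00698).

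NF-kB targets and chemokines held 2 calls each. Of 34 NF-kB genes 2 were called higher (5.88%, against 1.32% of all genes tested) and none lower, with a median of 0.51. A positive difference was found in 28 of the 34, and 12 lay wholly higher with ATEV, against 10.1% of all genes. Saa3, an acute-phase protein, was at 48.6, 77.9 and 190 CPM with ATEV and at 23.1, 14 and 13.4 CPM after DNase, with a wide spread within ATEV. Its difference of 2.65 ± 0.49 (adjusted p = 0.0130) did not pass without ATEV replicate 3, DNase-treated ATEV replicate 2 or replicate 3 (adjusted p up to 0.0955). Tnf was at 34.4, 26.2 and 32.5 CPM against 8.96, 15.2 and 12.2 CPM, with PBS at 17.6 ± 8.76 CPM (1.36 ± 0.29, adjusted p = 0.0319). The Tnf call was lost without any library but ATEV replicate 1 (adjusted p up to 0.117).

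Among 14 tested chemokines, Cxcl16 and Ccl5 were called higher (14.3%, against 1.32% of all genes tested) and none was called lower. Cxcl16, the ligand of CXCR6, was at 10.8, 16.9 and 22.6 CPM against 6.02, 6.96 and 5.72 CPM (1.43 ± 0.26, adjusted p = 0.0136). Ccl5, which attracts T cells, was at 2.02, 2.05 and 4.13 CPM against 0.819, 0.521 and 0.417 CPM (2.22 ± 0.49, adjusted p = 0.0404). Both chemokines lost their call without any library but ATEV replicate 1, with adjusted p up to 0.0927 for Cxcl16 and 0.187 for Ccl5. Cxcl10, a typical interferon-induced chemokine, was at 0.430, 0.621 and 1.43 CPM against 0.433, 0.189 and 0.334 CPM, low and overlapping levels that differed by 1.34 ± 0.55 (adjusted p = 0.274).

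Cell death, complement and Fc receptor genes also held calls, all of them higher with intact ATEV. In the cell death list 3 of 17 were called. Fas, the death receptor, was at 9.47, 12.6 and 12.9 CPM with ATEV and at 1.93, 2.27 and 2.25 CPM after DNase, with PBS at 2.56 ± 0.880 CPM (2.43 ± 0.30, adjusted p = 0.00104). Casp4, the caspase that senses cytosolic lipopolysaccharide, averaged 22.5 ± 4.61 against 7.61 ± 0.953 CPM (1.56 ± 0.25, adjusted p = 0.00525). Casp1, the inflammasome caspase, averaged 66.4 ± 17.6 against 32.6 ± 4.61 CPM (1.03 ± 0.18, adjusted p = 0.0100), with an adjusted p of up to 0.0769 without DNase-treated ATEV replicate 2 or replicate 3.

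Of 15 complement genes C1s1 and C3 were called. C1s1 had enough counts only through the ATEV libraries, so that its call is partly fixed by the filter. Of the 14 that pass the filter over the other libraries alone, 1, C3, was called. C1s1, a protease of the classical pathway, had 54 against 8 counts, a ratio of 7.05 (3.34 to 17.2; adjusted p = 0.00669). C3, the central component, averaged 101 ± 11.4 against 53.3 ± 6.74 CPM (0.92 ± 0.17, adjusted p = 0.0136), and its adjusted p reached 0.0922 when ATEV replicate 2 or 3 or DNase-treated ATEV replicate 1 or 2 was left out. Of 7 Fc gamma receptors Fcgr4, an activating receptor, was called, at 16 ± 4.18 against 5.47 ± 0.618 CPM (1.55 ± 0.25, adjusted p = 0.00599). No Toll-like receptor or adaptor was called among 21, and their median was 0.12.

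Ly6 and SLAM surface proteins had 5 called of 11 tested, with a median log2 difference of 1.68. Ly6a and Ly6i had enough counts only through the ATEV libraries, so that their calls are partly fixed by the filter. Of the 9 that pass the filter over the other libraries alone, 3 were called higher, with a median of 0.56. Ly6a, the antigen Sca-1, was at 4.74, 12.7 and 18.8 CPM with ATEV and at 0.963, 0.284 and 0.292 CPM after DNase. ATEV replicate 1 was the lowest of its group and still above every DNase-treated library, and the difference was 4.56 ± 0.56 (adjusted p = 0.00101). Slamf7, a receptor that binds itself on neighbouring cells, averaged 6.71 ± 1.73 against 1.15 ± 0.502 CPM (2.54 ± 0.38, adjusted p = 0.00371), and Slamf8 averaged 4.43 ± 1.78 against 0.411 ± 0.314 CPM (3.41 ± 0.54, adjusted p = 0.00497). Ly6c2, a monocyte antigen, was at 2.97, 6.64 and 12.6 CPM against 1.06, 1.28 and 1.75 CPM (2.42 ± 0.44, adjusted p = 0.0125). Its PBS level of 2.79 ± 0.267 CPM was above the DNase-treated level, and its adjusted p rose to as much as 0.0758 without ATEV replicate 3, DNase-treated ATEV replicate 1 or replicate 2.

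Serpina3f, Serpina3g and Fpr2 were among the largest rises and lay in no list. The serine protease inhibitor Serpina3f had 302 counts with ATEV and 4 after DNase, a ratio of 78.9 (30.5 to 291), and 0 counts in the PBS and NTEV libraries. Serpina3f thus had enough counts only through the ATEV libraries, so that its call is partly fixed by the filter. Its neighbour Serpina3g, which is similar enough in sequence to share reads, was at 4.86, 6.59 and 12.2 CPM against 0.867, 0.284 and 0.459 CPM (3.87 ± 0.47, adjusted p = 0.00101). Fpr2, a formyl peptide receptor, was at 1.46, 2.01 and 4.67 CPM against 0.193, 0.0473 and 0.0417 CPM, a ratio of 28.6 from 164 and 6 counts (12.8 to 79.0). Fpr2 was at 0.529 ± 0.505 CPM in PBS, above the DNase-treated libraries, and its adjusted p of 0.0164 rose to as much as 0.110 without ATEV replicate 3, DNase-treated ATEV replicate 2 or replicate 3.

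Genes of itaconate, arginine and tryptophan metabolism and of iron and heme handling also held calls. Acod1, the enzyme that makes itaconate, was at 293, 441 and 456 CPM with ATEV and at 92.3, 48.4 and 72.8 CPM after DNase. PBS cells held 58.6 ± 10.4 CPM, near the DNase-treated level, and the difference was 2.48 ± 0.32 (adjusted p = 0.00126). Ass1, which makes argininosuccinate in arginine synthesis, averaged 190 ± 7.31 against 109 ± 11.7 CPM (0.80 ± 0.12, adjusted p = 0.00362). These were the 2 called of 11 genes of itaconate, arginine and tryptophan metabolism (18.2%, against 1.32% of all genes called higher), whose median was -0.10. Of 18 iron and heme genes 2 were called higher (11.1%). Slc40a1, the iron exporter ferroportin, was at 95.0, 141 and 135 CPM against 51.5, 48.0 and 48.9 CPM (1.32 ± 0.17, adjusted p = 0.00126), with PBS between the groups at 82.8 ± 11.4 CPM. Blvrb, a biliverdin reductase, was at 57.2, 118 and 153 CPM against 52.2, 36.2 and 36.5 CPM (1.39 ± 0.28, adjusted p = 0.0250). The Blvrb call did not survive the loss of ATEV replicate 2 or 3 or DNase-treated ATEV replicate 2 or 3 (adjusted p up to 0.149).

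Calls that rested on several single libraries were also found in 3 further lists. The share called higher was 2.13% of lysosome genes, 1.3% of respiratory chain genes and 12% of p53 targets, against 1.32% of all genes. The first 2 shares were near that of all genes, so these single calls say nothing particular about their lists. Ctsh, a lysosomal protease and the single call among 47 lysosome genes, was at 43.5, 74.0 and 104 CPM against 25.1, 35.2 and 28.5 CPM (1.32 ± 0.29, adjusted p = 0.0376). Ndufa7, a subunit of respiratory complex I and the single call among 77 respiratory chain genes, averaged 145 ± 44.5 against 82.9 ± 4.31 CPM (0.80 ± 0.18, adjusted p = 0.0404). Among 25 p53 targets, which include Fas, the cyclin Ccng1 averaged 163 ± 14.6 against 105 ± 4.12 CPM (0.64 ± 0.13, adjusted p = 0.0209). Mdm2, the ligase that degrades p53, averaged 257 ± 16.4 against 142 ± 22.2 CPM (0.86 ± 0.19, adjusted p = 0.0379). Ctsh, Ndufa7 and Ccng1 lost their calls without any library but ATEV replicate 1, with adjusted p up to 0.162, 0.177 and 0.0990. Mdm2 kept its call without ATEV replicate 1 or DNase-treated ATEV replicate 3, and its adjusted p otherwise reached 0.145.

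The 19 genes lower with intact ATEV belonged to none of the lists. Cytip, a regulator of cell adhesion in leukocytes, was at 32.8, 18.6 and 25 CPM with ATEV and at 47.0, 60.2 and 60.5 CPM after DNase, with PBS at 65.6 ± 9.84 CPM. Its difference was -1.13 ± 0.19 (adjusted p = 0.00682). Srd5a1, a steroid 5-alpha-reductase, was at 7.45, 5.02 and 5.2 CPM against 12.0, 13 and 12.2 CPM, with PBS at 13.1 ± 0.220 CPM (-1.07 ± 0.17, adjusted p = 0.00525). Cytip and Srd5a1 were the 2 lower genes that stayed called whichever library was left out. Atp7b, a copper transporter, averaged 0.224 ± 0.0377 against 1.44 ± 0.379 CPM. With 14 against 96 counts it was 6.56 times as high after DNase (counting interval 3.73 to 12.5; -2.67 ± 0.46, adjusted p = 0.00901, and 0.0602 without ATEV replicate 2).

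For Mmp12, the macrophage elastase, the PBS level was closer to ATEV than to DNase-treated ATEV. Mmp12 was at 1.98, 1.67 and 3.82 CPM with ATEV, 7.75, 9.80 and 12.8 CPM after DNase and 3.17 ± 1.28 CPM in PBS. The difference was -2.03 ± 0.35 (adjusted p = 0.00911, and 0.0602 without ATEV replicate 2). In the same fit Mmp12 differed from PBS by 1.67 ± 0.34 after DNase (adjusted p = 0.251) and by -0.36 ± 0.35 with ATEV (adjusted p = 0.528), contrasts that share libraries with the one described. The other named lower genes were F10, which encodes coagulation factor X (-1.13 ± 0.25, adjusted p = 0.0397), Lmod3, a leiomodin (-1.58 ± 0.31, adjusted p = 0.0202), Lrrc14b (-1.49 ± 0.31, adjusted p = 0.0293), Frat1, an inhibitor of GSK3 (-0.96 ± 0.21, adjusted p = 0.0412), and Slc37a4, the glucose-6-phosphate transporter (-0.69 ± 0.14, adjusted p = 0.0265). All 5 lost their calls without ATEV replicate 2, ATEV replicate 3, DNase-treated ATEV replicate 2 or DNase-treated ATEV replicate 3, with adjusted p up to 0.213, 0.105, 0.138, 0.218 and 0.156.

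**Figure D3:**
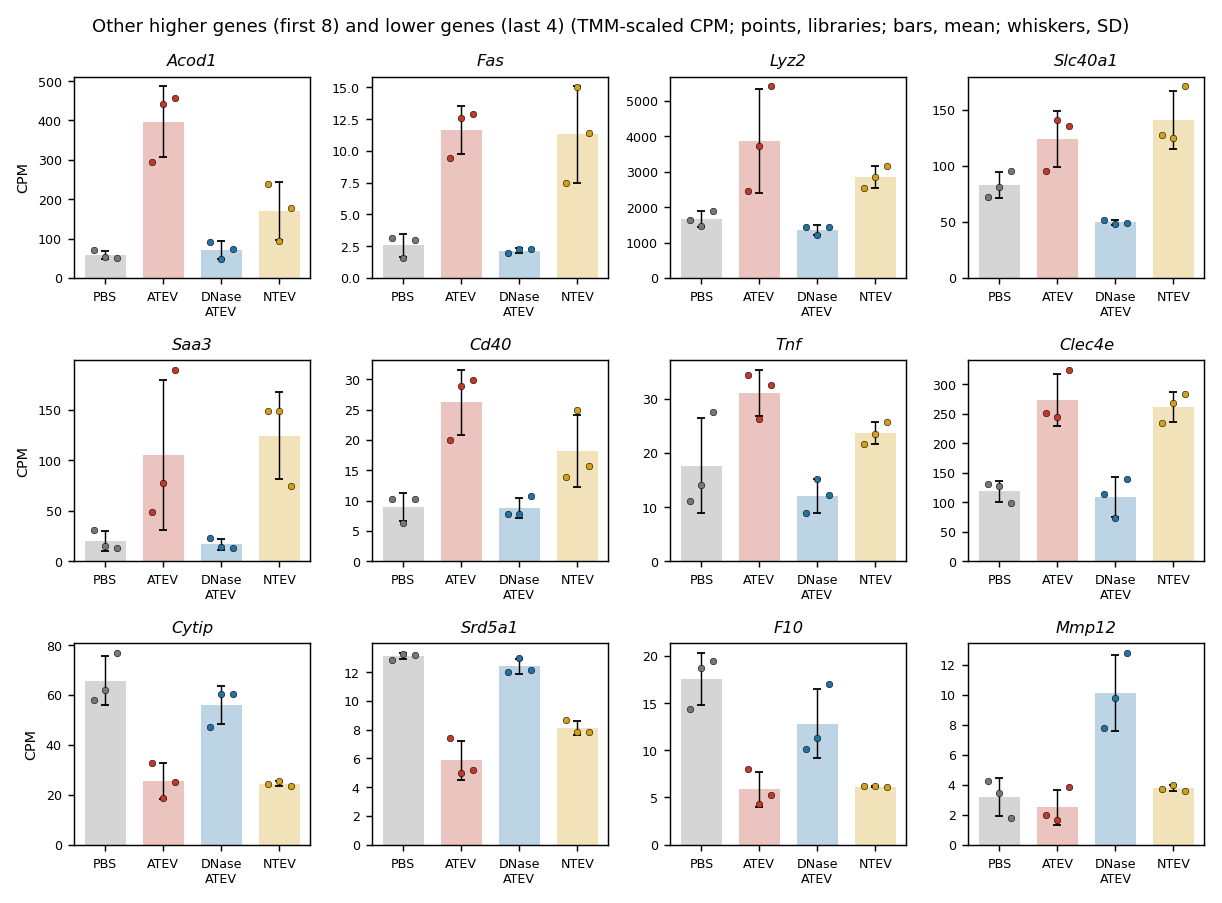
Levels (TMM-scaled CPM, linear axes from 0) of 8 genes higher and 4 genes lower with intact ATEV in the 4 groups; points are libraries, bars means and whiskers SD of 3 libraries. Acod1 averages 397 CPM with ATEV against 71.2 CPM after DNase, Fas and Clec4e are also high with NTEV, and Mmp12 is highest in the DNase-treated ATEV libraries.

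Several large lists held no called gene, which does not show that their genes were at equal levels. None of 53 cell cycle and DNA replication genes was called. Of these 9 had a positive difference, the median was -0.22, and 17 lay wholly lower with ATEV against 10% of all genes. None of 42 glycolysis and hypoxia genes was called, with a median of -0.32 and 7 positive differences. Their summed level was 17130 to 19991 CPM with ATEV and 20477 to 27836 CPM after DNase, groups that did not overlap. None of 79 cytosolic ribosomal protein genes was called, and 74 had a positive difference, with a median of 0.32. Of the 79, 5 lay wholly higher with ATEV, against 10.1% of all genes. Their sums overlapped, at 73360 to 101348 CPM with ATEV and 63866 to 77934 CPM after DNase. The 32 unfolded protein response genes, 34 cholesterol genes and 28 immediate early genes also had no call, with medians of -0.08, 0.14 and -0.14. A share of 50.4% of all genes had a positive difference.

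**Figure D4:**
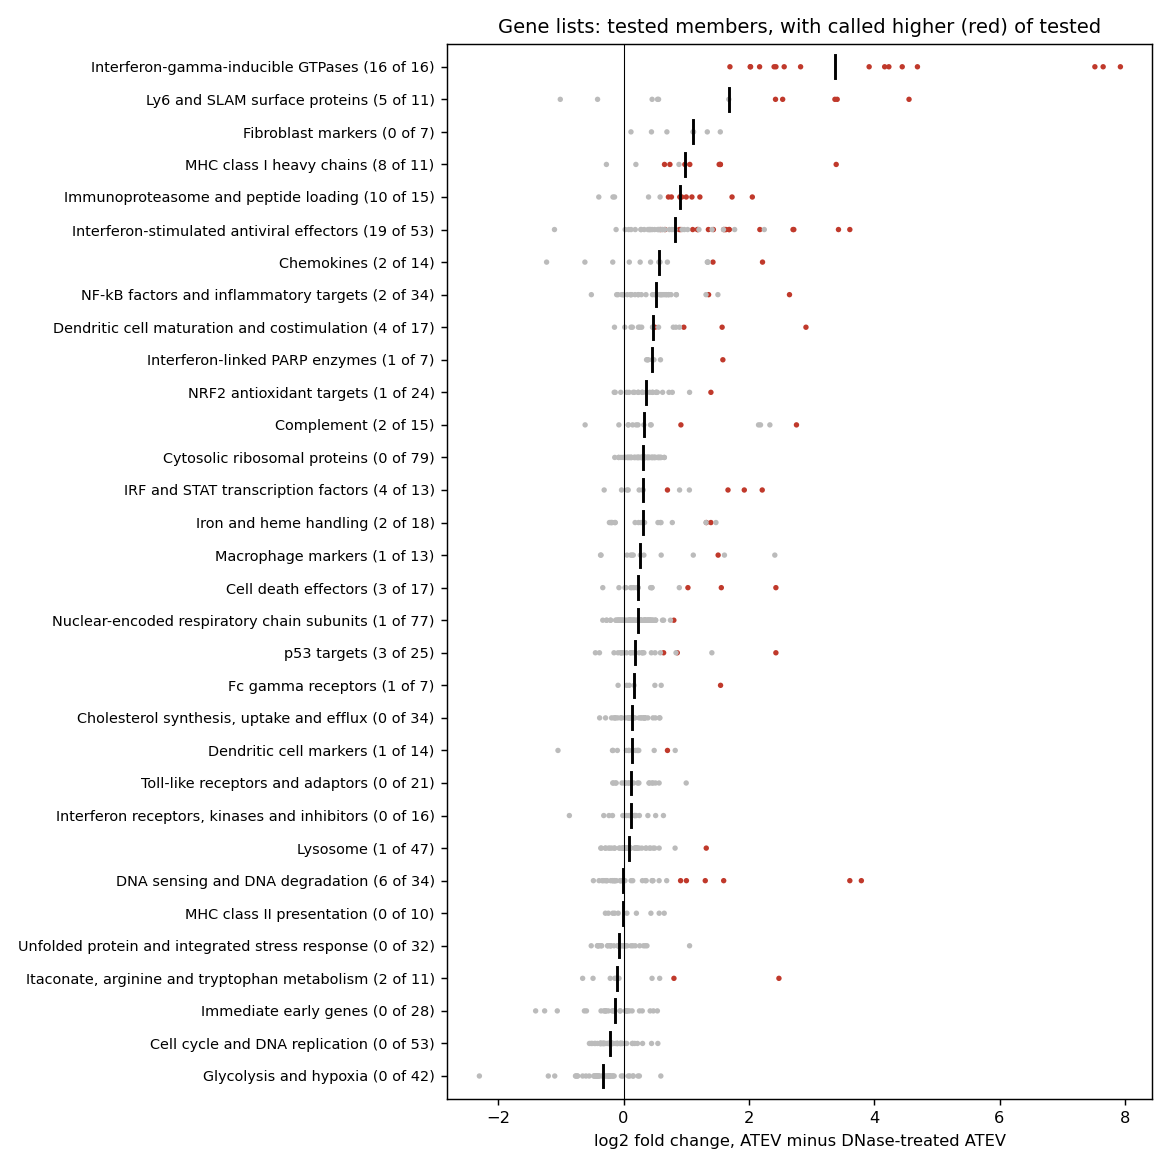
Log2 fold change of intact ATEV over DNase-treated ATEV (horizontal axis) for the tested members of each gene list; red points are called higher, grey points are not called, and the black tick is the median. The 16 GTPases all lie above 1.69, whereas the cell cycle and glycolysis lists centre below 0.

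Markers of other cell types were summed in each library. Of 27 T cell markers 4 were tested and none was called. Their summed level was 86.8 to 131 CPM with ATEV and 98.7 to 110 CPM after DNase, and Cd3e and Cd8a had 0 counts in all 12 libraries. Of 10 B cell markers 2 were tested and none was called, with sums of 35.8 to 41.9 CPM and 35.4 to 60.0 CPM. The fibroblast markers had 0 of 7 called and sums of 4.82 to 14.7 CPM against 5.13 to 6.87 CPM, low levels at which its median log2 difference was 1.11. Among 13 tested macrophage markers 1 was called higher (7.69%, against 1.32% of all genes), and the median was 0.27. Of the 13, 11 had a positive difference, against 50.4% of all genes, and 5 lay wholly higher with ATEV, against 10.1%. The sum of the macrophage list was 4874 to 8122 CPM with ATEV, 3340 to 3667 CPM after DNase, 3565 to 4354 CPM in PBS and 5300 to 5723 CPM with NTEV. Lyz2, lysozyme of macrophages, was the most abundant and the called member, at 2468, 3716 and 5413 CPM with ATEV and 1426, 1198 and 1449 CPM after DNase (1.51 ± 0.23, adjusted p = 0.00489). The list's differences ran from -0.37 for F13a1 to 2.41 for Marco, a scavenger receptor (adjusted p = 0.738 and 0.0584). Cd68 and Adgre1, which mark the same lineage, differed by 0.11 and 0.14 (adjusted p = 0.722 and 0.779). C1qb and Aif1, macrophage genes outside the list, differed by 2.33 and 2.47 (adjusted p = 0.0963 and 0.0371). In bulk RNA, fewer cells of a kind and less RNA per cell cannot be told apart, and the part of the macrophage markers in the other results was not tested.

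NTEV against PBS shares no library with the contrast described, so it shows which of these genes also differ with vesicles that come from non-activated cells, at a higher vesicle dose. In that contrast 2.31% of genes were called, 225 higher (1.7%) and 81 lower (0.611%). Of the 175 genes higher with intact than with DNase-treated ATEV, 36 were also called higher with NTEV, which is 20.6% of these and 16% of the NTEV list. Of the 19 lower genes 5 were also called lower with NTEV (26.3% of these and 6.17% of the NTEV list), among them Srd5a1, Cytip, F10 and Atp7b. The shares can be split by kind of gene. Of the 58 higher genes in the interferon and class I lists, 4 (6.9%) were called higher with NTEV and 1, Gbp7, was called lower, and their median NTEV difference from PBS was 0.14. Of the 117 other higher genes, 32 (27.4%) were called higher with NTEV, with a median of 0.54. No test of the difference between these shares was made. Some of the 58, such as Iigp1 and Tgtp2, had enough counts only through the ATEV libraries and no count with PBS or NTEV. Such genes could hardly be called between NTEV and PBS, so the shares are partly set by the filter. Some of the 117, such as Ly6a and Il27, also had enough counts only through the ATEV libraries. Across all genes the log2 differences of the contrasts correlated at r = 0.32 and rho = 0.36, a description across genes that are not independent.

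Single genes show both patterns. Iigp1, Tgtp2 and Serpina3f had no count with NTEV, and Irf1 was at 16.9 ± 7.48 CPM with NTEV and 17.3 ± 9.76 CPM in PBS (-0.03 ± 0.35, adjusted p = 0.969). Gbp7 was lower with NTEV than in PBS, at 0.672 ± 0.253 against 1.78 ± 0.234 CPM (-1.36 ± 0.29, adjusted p = 0.0287). Fas was at 11.3 ± 3.80 CPM with NTEV against 2.56 ± 0.880 CPM in PBS (2.13 ± 0.30, adjusted p = 0.00434), close to its 11.6 ± 1.88 CPM with intact ATEV. Acod1 averaged 170 ± 72.7 CPM with NTEV (1.54 ± 0.31, adjusted p = 0.0255), between PBS and ATEV. Cytip averaged 24.4 ± 1.05 CPM with NTEV (-1.43 ± 0.19, adjusted p = 0.00302), near its ATEV level of 25.5 ± 7.14 CPM.

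**Figure D5:**
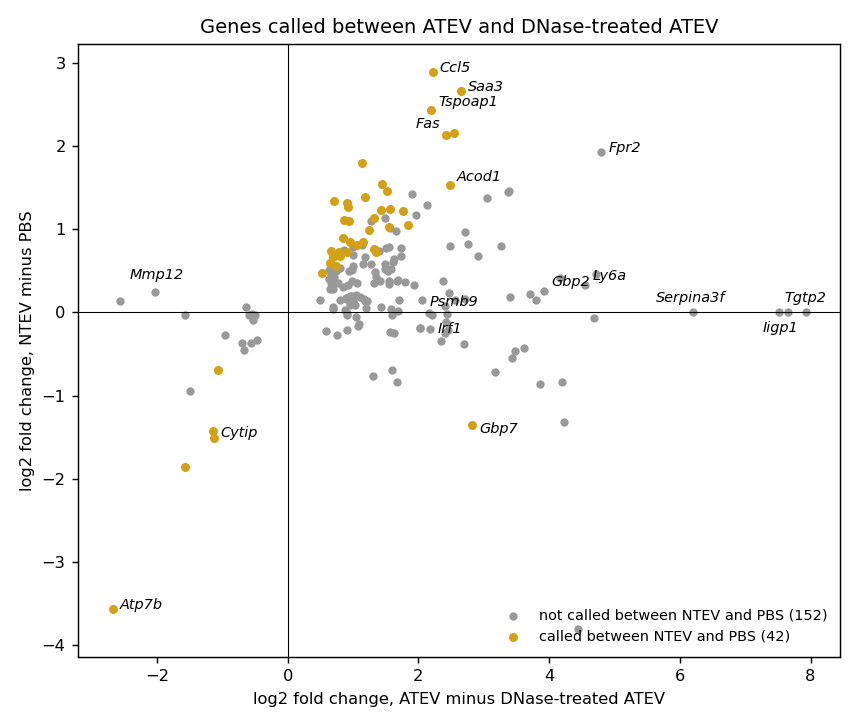
Log2 fold change of NTEV over PBS (vertical axis) against that of intact over DNase-treated ATEV (horizontal axis) for the 194 called genes; orange points are also called between NTEV and PBS (42), grey points are not (152). Iigp1, Tgtp2 and Serpina3f lie far to the right at 0 on the vertical axis, whereas Fas, Saa3 and Ccl5 rise on both axes and Cytip and Atp7b fall on both.

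The number of called genes depended on single libraries. Without ATEV replicate 1 it was 522, against 104 and 103 without ATEV replicate 2 and 3, and 145, 78 and 110 without DNase-treated ATEV replicate 1, 2 and 3. A core of 74 genes, 72 higher and 2 lower, stayed called whichever of the 6 libraries was left out.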

How the data were processed

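Per the labels' protocols, DC2.4 mRNA was made into libraries with a TruSeq stranded kit. Per the submitters' processing notes, the build was mm9 and the tools were Cufflinks 2.1.1, TopHat, TopHat2 2.0.11 and bcl2fastq 2.19. The values are whole-number counts per gene in 12 columns as deposited, with no normalization visible. Not given in the sources used here are the annotation, the read counter and its strand setting, and reads of overlapping, antisense or near-identical genes may be assigned to the wrong gene. Of 42687 gene identifiers, 42250 were matched to GENCODE M21 symbols and 437 were not. Groups came from the treatment labels and replicate numbers from the titles.

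The analysis used edgeR 4.0.16 in R 4.3.3. Genes were kept by filterByExpr over the 4 groups (minimum count 10, minimum total 15), libraries were scaled by TMM, and a quasi-likelihood model of the 4 group means was fitted over the 12 libraries together, so that all groups inform the spread (common biological coefficient of variation 0.183). Every p adjusted over genes comes from its F test with Benjamini-Hochberg adjustment over 13261 genes, is two-sided and is called under 0.05. Each standard error was obtained from the gene's F statistic. Levels are mean ± SD of TMM-scaled CPM over 3 libraries. Where a group held 15 counts or fewer, a ratio of summed counts is given with its exact 95% counting interval, and a group at 0 was set at 3 counts. Such intervals cover counting error only. Library totals of 19.4 to 22.9 M set this counting error. Replicates differed by more than counting noise (chi-square per degree of freedom 14.3 to 81.5), so none was taken as a copy of another.

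Named genes were the 10 that rose most and the 10 that fell most among called genes that reached 1 CPM in their higher group and did not overlap between libraries (no predicted genes or pseudogenes), up to 4 called members of each of 36 gene lists with the smallest adjusted p, and a panel of interferon, presentation, costimulation and sensing genes. List members named outside that rule, such as Gbp3, Gbp9, Gm4951, Erap1, Canx, Cd68 and Sirpa, were chosen after their values were seen. A few genes picked by the rule are left unreported. The comparison, the gene lists and the panel were chosen with earlier results of these data known. Mitochondrially encoded genes were not analysed here. Promoter windows are those of RefSeq (GRCm38.p6), matched by symbol for 9358 of the genes tested. Alternatives were RLE and upper-quartile scaling, DESeq2 1.42.0, limma-voom (limma 3.58.1), other filters, the 6 libraries alone, a replicate block, a 2-fold threshold and leaving out each library. The test was run on simulated counts drawn from the real means and library sizes before use.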

Additional observations from a re-analysis of the deposited data

How the results depend on the processing

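Against 194 called genes (175 higher, 19 lower), RLE scaling gave 192, upper-quartile scaling 188, limma-voom 182 and a stricter filter 186. DESeq2 called 495 (358 higher, 137 lower; 193 shared), and no filter on low counts gave 394 (333 and 61; 187 shared) of 23092 genes. Requiring a 2-fold change as well left 132, with 9 lower. The 6 libraries alone gave 178 (12 lower), of which 146 were shared. Leaving out each library gave 78 to 522 calls, 74 to 410 higher and 2 to 112 lower, the highest without ATEV replicate 1 and the lowest total without DNase-treated ATEV replicate 2; the cause was not tested. No named gene changed direction under any alternative, and no scaling moved the median of all genes by 0.1.

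Same-numbered ATEV and DNase-treated ATEV libraries did not deviate together (correlations -0.38, 0.08 and -0.29), and ATEV replicate 2 was the single library that correlated best with its own number. These correlations gave no sign that the numbers pair the samples. They are too few to settle whether libraries of the same number share an effect. With a replicate block, 12 libraries gave 261 calls (225 higher, 36 lower) and the 6 libraries alone gave 22 (22 higher, 0 lower), all 22 among the 194.

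Counts of this comparison were simulated over 13091 genes with 3 libraries a group. Of 50 genes changed by 1 on the log2 scale 70% were called, and of 50 changed by 0.5 8% were called. The changed genes were drawn from those averaging at least 1 CPM, so these shares do not cover genes with fewer counts. For genes with few counts in one group the size of the change is known only within its counting interval. The read counter and strand setting limit what can be said of overlapping and near-identical genes. None of the 12 libraries is from cells given DNase alone, so the enzyme, what it removed from the vesicles and any other effect of the pretreatment cannot be told apart.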

Other observations

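Genes outside the named set were also higher with intact than with DNase-treated ATEV, and they were picked after their values were seen. Il12rb1, a receptor chain for IL-12 and IL-23, was at 9.08, 9.03 and 7.16 CPM with ATEV and 1.73, 1.47 and 1.63 CPM after DNase (2.38 ± 0.23, adjusted p = 0.000122), and NTEV cells held 2.12 ± 0.581 CPM. Clec4e, the receptor Mincle, averaged 273 ± 44.7 against 109 ± 33.7 CPM (1.33 ± 0.21, adjusted p = 0.00525). Clec4e was also called higher with NTEV than in PBS (adjusted p = 0.0169), whereas Il12rb1 was not (adjusted p = 0.400).

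In Id3 and Pirb the mean of PBS lay between those of ATEV and DNase-treated ATEV, and no difference from PBS was called in either gene. Id3, an inhibitor of helix-loop-helix factors, was at 6.29 ± 1.28 CPM with ATEV, 4.68 ± 1.35 CPM in PBS and 1.97 ± 0.399 CPM after DNase (1.67 ± 0.27, adjusted p = 0.00629, and 0.0518 without DNase-treated ATEV replicate 2). Its difference between DNase-treated ATEV and PBS was -1.24 ± 0.27 (adjusted p = 0.379). Pirb, an inhibitory receptor for class I molecules, averaged 14.5 ± 3.26, 9.43 ± 3.08 and 5.43 ± 0.235 CPM in the same order (1.41 ± 0.24, adjusted p = 0.00838). Its differences from PBS were 0.61 with ATEV (adjusted p = 0.125) and -0.80 after DNase (adjusted p = 0.671).

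Complement C1q genes differed between the ATEV libraries themselves. C1qb was at 83.6, 265 and 395 CPM in ATEV replicates 1, 2 and 3 and at 62.1, 58.7 and 26.7 CPM after DNase (2.33 ± 0.62, adjusted p = 0.0963), and its adjusted p was 0.0245 without ATEV replicate 1. Aif1, a calcium-binding protein of macrophages, was at 6.20, 16.5 and 30.9 CPM against 4.33, 3.36 and 1.96 CPM (2.47 ± 0.53, adjusted p = 0.0371), and its adjusted p reached 0.164 without any library but ATEV replicate 1.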
